A study of Mus musculus with 4 samples.

Results

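Mouse Th2 cells that had been cultured without any compound were compared after 4 h of restimulation through the T cell receptor (TCR) and at rest. The comparison used the 2 control samples of the 4 samples in the study, chosen by their labels, with 1 array per condition. Of 18535 genes that could be named on the arrays, 12767 gave a signal well above background on at least 1 of these 2 arrays and were compared. The study measured gene expression in Th2 cells grown with or without SH-2251, a thioamide-related compound, either resting or restimulated. The SH-2251 samples are set beside the control samples only where the same contrast is shown in both.

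Both control samples were CD4 T cells sorted with magnetic beads from the spleens of female C57BL/6J mice, whose age and number the labels do not give. The cells were activated for 2 days on plate-bound antibody to TCR-β (3 µg/ml) together with antibody to CD28 (1 µg/ml), while 2.5 ng/ml of IL-2 and 10 ng/ml of IL-4 were present. They were then moved to a fresh plate and kept for 3 days in the same cytokines. The restimulated sample received plate-bound antibody to TCR-β for a further 4 h, and the resting sample did not. The study's methods describe naïve CD4 T cells as the starting population and list an antibody to IFN-γ in the culture, which the labels do not mention. Those methods also state an age range for all mice of the study. Nothing states separate animals or cultures behind the samples. In such bulk RNA a lower signal from fewer cells of a type and one from less RNA per cell cannot be told apart.

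Each value below is a level or a difference on the log2 scale. A level is the processed signal of a gene's probe relative to the 75th percentile of all probes on that array, so that 0 marks the percentile and 1 unit is a 2-fold step. Every difference is restimulated minus resting. Levels of different genes depend on their probes and are not compared with each other. The scanner software's error estimate gave a technical SD with a median of 0.204 for a difference between genes measured on both arrays. The SD is printed beside a measured difference only where it exceeded 0.25. With 1 array per condition there was no replicate check, so no test was possible, and a gene was counted as higher or lower from 2-fold. Where a gene was not well above background on 1 array, that array's lowest detected signal stood in for it (or the gene's own signal where that was higher), and the fold is written as "at least".

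Differentiated Th2 cells defend against parasitic worms and drive allergic inflammation through IL-4, IL-5 and IL-13. At rest they keep these genes accessible but transcribe them at a low rate. Ligation of the TCR raises intracellular calcium and activates kinase cascades, which bring NFAT, AP-1, EGR and NF-κB transcription factors to cytokine promoters. The same signals induce inhibitors that later end the response, and they raise the synthesis of ribosomes and the uptake of nutrients.

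The arrays were similar in quality. The 75th percentile corresponded to 561 intensity units on the resting array and 499 on the restimulated array, 56.7% and 56.5% of all probes passed the background test, and no sample spot was saturated. The 8 detected probes of the spike-in RNA were 0.10 to 0.20 higher on the restimulated array (median 0.12), and 13 genes commonly used as references differed by -0.29 to 0.48 with a median of 0.00.

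Restimulation was accompanied by increases that reached much larger sizes than the decreases. Of the 12767 genes, 924 (7.24%) were at least 2-fold higher and 940 (7.36%) at least 2-fold lower, with a median difference of -0.06 over all genes. From 4-fold, 241 genes were higher and 58 lower, and from 8-fold, 80 were higher and 2 lower. In the range from 16-fold, 27 genes were higher and none was lower. Among the 924 higher genes 138 were not well above background at rest, and among the 940 lower genes 114 were not well above background after restimulation. The near balance at 2-fold depended on the scaling. When the arrays were centred on the spike-in probes, 750 genes were higher and 1237 lower, so that 37.7% of the genes past 2-fold were higher in place of 49.6%.

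**Figure D1:**
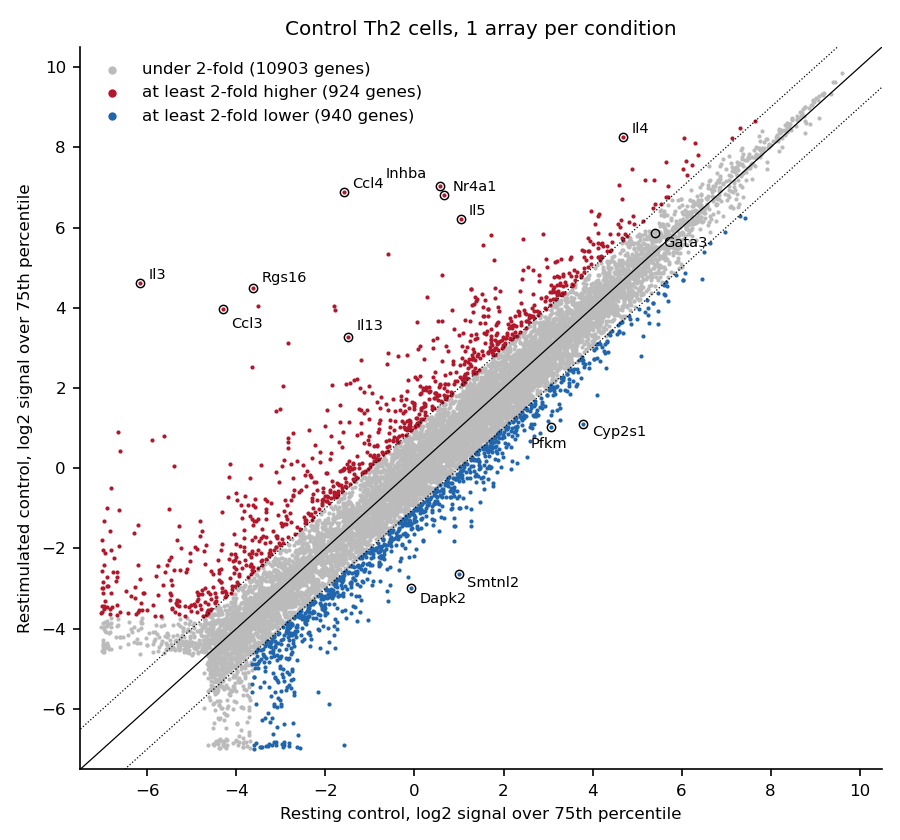
Level of each of the 12767 genes in resting (x axis) and restimulated (y axis) control Th2 cells, each as log2 signal over the array's 75th percentile, with 1 array per axis. The solid line marks equal levels and the dotted lines 2-fold differences. Genes not above background on 1 array are plotted at their measured signal. The points for Il3, Ccl3, Ccl4 and Rgs16 lie farthest above the line, while Smtnl2 and Dapk2 lie farthest of the labelled genes below it.

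The cells had the transcripts that define CD4 T cells on both arrays. All 8 CD4 T cell markers (the CD3 chains, Cd4, Cd5, Cd2, Thy1 and Lck) were well above background at rest and after restimulation, and 7 of them differed by less than 2-fold. Their summed signal was 515 times the 75th percentile at rest and 592 times after restimulation. The remaining marker, Cd5, was 2.15-fold higher. Cd4 itself had a level of -0.78 at rest and -0.77 after restimulation. The Th2 markers Gata3, Il4, Il5, Il13, Il1rl1, Ccr8, Ccr4 and Ptgdr2 were also all above background on both arrays.

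Markers of other blood cells were partly detected. B cell markers were above background for 7 of the 8 with a probe on either array, and their summed signal was 40.9 times the 75th percentile at rest and 33.0 times after restimulation. Cd79b had a level of 1.67 at rest and 1.26 after restimulation, and Pax5 was not above background. Of 8 myeloid markers 4 were above background on either array, with a summed signal of 2.97 at rest and 3.1 after restimulation, whereas Lyz2, Itgam, Itgax and Tyrobp were not. Over all markers with a probe, the sum was 0.347 and 0.342 for NK and CD8 T cells (5 markers), 0.273 and 0.272 for basophils, mast cells and eosinophils (6 markers), and 2.41 and 2.57 for red cells (5 markers). The B cell and myeloid sums likewise include the markers that were not above background. No gene of these 5 lists differed by 2-fold, and Mcpt8, Ms4a2, Prg2, Epx, Ncr1, Klrb1c and Alas2 were not above background. The part of such cells in the differences below was not tested.

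The cytokine genes that define Th2 cells were all higher after restimulation. Il4, whose product drives Th2 differentiation and the switch to IgE, had a level of 4.69 at rest and 8.25 after restimulation, an 11.8-fold difference. The eosinophil growth factor gene Il5 went from 1.04 at rest to 6.2, which was 35.8-fold. Il13, which encodes an inducer of mucus and airway reactivity, had levels of -1.49 and 3.28, or 27.4-fold. These genes lie in 1 cluster with Rad50, a DNA repair gene that houses control elements of the cluster, and with Kif3a, Septin8 and Irf1. Rad50 differed by -0.11, Kif3a by 0.23 and Septin8 by less than 0.01, while the transcription factor gene Irf1 was 2.04-fold higher. The large differences in this cluster thus belonged to the cytokine genes. Over the 7 genes 4 were at least 2-fold higher, and the median was 1.03. Irf1 was so close to 2-fold that quantile normalization or spike-in centring left 3 higher genes, with medians of 0.92 and 0.91.

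The sequences before the start sites of 6 strongly increased cytokine genes are shown because the transcription factors activated by the TCR are known to bind in this region. They are the 250 bases before the RefSeq start on GRCm38.p6, read along the coding strand, and capitals mark matches on either strand to the AP-1 motif (TGANTCA), the cAMP response element (TGACGTCA), the NFAT core (TGGAAA), the TATA box (TATAAA), and NF-κB. The genes were chosen after their values and matches were seen. Il4 has 2 starts in the table, and the farther upstream one is shown.
Il4 (chr11:53618666-53618915, minus strand): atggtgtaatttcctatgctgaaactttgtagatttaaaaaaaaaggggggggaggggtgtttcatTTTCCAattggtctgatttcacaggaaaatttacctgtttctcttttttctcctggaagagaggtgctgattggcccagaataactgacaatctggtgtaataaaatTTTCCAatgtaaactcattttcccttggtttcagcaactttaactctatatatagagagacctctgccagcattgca
Il13 (chr11:53634703-53634952, minus strand): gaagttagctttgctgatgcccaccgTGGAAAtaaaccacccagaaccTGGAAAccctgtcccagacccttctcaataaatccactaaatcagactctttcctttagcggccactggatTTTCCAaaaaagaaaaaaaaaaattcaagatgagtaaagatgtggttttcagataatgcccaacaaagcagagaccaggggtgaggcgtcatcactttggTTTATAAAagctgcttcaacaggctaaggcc
Il5 (chr11:53720544-53720793, plus strand): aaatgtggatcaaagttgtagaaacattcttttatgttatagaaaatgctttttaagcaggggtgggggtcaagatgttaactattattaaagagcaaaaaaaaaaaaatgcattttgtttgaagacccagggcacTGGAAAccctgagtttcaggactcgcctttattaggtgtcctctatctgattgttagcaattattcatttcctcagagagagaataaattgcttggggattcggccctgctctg
Il3 (chr11:54267280-54267529, minus strand): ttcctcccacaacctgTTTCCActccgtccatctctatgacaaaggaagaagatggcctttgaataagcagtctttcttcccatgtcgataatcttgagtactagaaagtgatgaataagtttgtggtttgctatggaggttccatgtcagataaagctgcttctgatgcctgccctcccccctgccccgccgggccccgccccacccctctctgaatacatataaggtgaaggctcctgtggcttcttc
Il6 (chr5:30012864-30013113, plus strand): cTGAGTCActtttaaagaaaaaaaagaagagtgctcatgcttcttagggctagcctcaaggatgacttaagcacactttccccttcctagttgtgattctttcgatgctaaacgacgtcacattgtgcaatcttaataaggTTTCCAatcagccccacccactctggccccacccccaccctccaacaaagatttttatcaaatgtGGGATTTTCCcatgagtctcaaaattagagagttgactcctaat
Areg (chr5:91139349-91139598, plus strand): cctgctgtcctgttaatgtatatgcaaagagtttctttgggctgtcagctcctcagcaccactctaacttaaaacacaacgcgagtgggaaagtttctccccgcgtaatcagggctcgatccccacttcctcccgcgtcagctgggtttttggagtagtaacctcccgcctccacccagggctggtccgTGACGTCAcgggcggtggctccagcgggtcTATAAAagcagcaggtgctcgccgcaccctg

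The promoters of Il4, Il13 and Il5 hold 2, 3 and 1 NFAT cores in these windows. The Il3 window holds 1 NFAT core, that of Il6 holds 1 AP-1 motif, 1 NFAT core and 1 NF-κB motif, and that of Areg a cAMP response element and a TATA box. In the Il13 window the TATA match on the coding strand starts 29 bases before the start site, and it overlaps a match on the opposite strand by 4 bases. Matches are a description of letters and not evidence of binding.

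Across many genes, the same windows gave the following shares. Promoters were found in the RefSeq table for 195 of the 241 genes at least 4-fold higher (247 promoters), for 47 of the 58 genes at least 4-fold lower (70 promoters) and for 10252 of all genes compared (13006 promoters). The NFAT core was present in 24.7% of promoters of the higher genes, 8.57% of those of the lower genes and 15.2% of all. For AP-1 the shares were 10.1%, 8.57% and 4.65%, for NF-κB 16.2%, 10.0% and 8.86%, and for the TATA box 13.8%, 8.57% and 7.38%. The EGR motif (GNGGGNGNG) was about equally frequent at 53.4%, 54.3% and 54.5%. The cAMP response element was found in 2.43%, 0% (0 of 70) and 2.45%, the CArG serum response element in 2.02%, 1.43% and 1.21%, and the sterol regulatory element in 0.81%, 2.86% and 1.00%. These shares were not tested, and genes with several starts contribute several promoters. In the whole table of 32851 promoters the shares were 18.6% for the NFAT core, 6.75% for AP-1, 7.25% for NF-κB, 12.4% for the TATA box, 40.1% for EGR, 1.55% for the cAMP response element, 1.47% for the serum response element and 1.05% for the sterol regulatory element.

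Beyond the Th2 cluster, many other cytokine genes were higher. Of 28 further cytokine and growth factor genes compared, 19 were at least 2-fold higher and 2 lower, and the median difference was 2.18 against -0.06 over all genes. A gene above background only after restimulation could not count as lower. Of the 22 above background on both arrays, 14 were higher and 2 lower, with a median of 1.83. Il3, a growth factor for mast cells and basophils, was not above background at rest and reached a level of 4.61, at least 646-fold higher. Csf2, which encodes the related factor GM-CSF, went from -1.79 to 3.94 (53.1-fold). Il31, the gene of an itch-inducing cytokine of Th2 cells, had levels of -2.85 and 3.13 (62.9-fold).

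Several of these cytokines are better known from other T helper subsets or other cells. Ifng, the signature gene of Th1 cells, had a level of -0.58 at rest and 5.34 after restimulation (60.7-fold). Il6 was 57.7-fold higher and Il21, a cytokine of follicular helper T cells, 22.5-fold higher. The Th17 genes Il17f and Il17a were above background only after restimulation, at levels of -1.57 and -1.93, and were at least 8.93-fold and 6.92-fold higher. Il2, the T cell growth factor gene, reached a level of -1.44 from below background (at least 9.74-fold), and Il1a was at least 9.89-fold higher. Il9 and Il1b were not above background on either array.

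Regulatory and tissue repair factors differed by various amounts. Areg, which encodes the epidermal growth factor receptor ligand amphiregulin, went from -3.64 to 2.51 (71.1-fold, technical SD 0.280). Hbegf, another ligand of that receptor, was 4.93-fold higher. Il10, the gene of an anti-inflammatory cytokine, was already at 4.12 at rest and reached 6.29 (4.51-fold). Tnf was 6.02-fold, Penk, the precursor of enkephalin peptides, 4.54-fold, Il24 3.93-fold, Csf1 3.24-fold and Gdf15 2.44-fold higher (technical SD 0.258). In the opposite direction, Tgfb3 went from 2.59 to 0.69 and was 3.73-fold lower, and lymphotoxin alpha (Lta) went from 3.76 to 2.70 (2.08-fold lower). The related gene Tgfb1 differed by 0.84.

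Chemokine genes included the largest increases measured on both arrays. Ccl4 and Ccl3 are neighbouring genes whose products attract inflammatory cells. Ccl4 went from -1.58 to 6.88 (351-fold), and Ccl3 from -4.30 to 3.97 (308-fold, technical SD 0.332). Ccl1, the ligand of the Th2 receptor CCR8, was not above background at rest and reached 0.43 (at least 35.5-fold). Of the neutrophil attractants, Cxcl3 was at least 43.1-fold and Cxcl2 at least 4.96-fold higher. Cxcl10 was 4.26-fold higher (technical SD 0.282) and Ccl5 2.23-fold. Cxcl16 was 2.46-fold lower on the probe used (technical SD 0.283) and differed by -0.15 on its other probe. In all, 7 of the 11 chemokine genes compared were higher and 1 lower, with a median difference of 2.09. Of the 7 above background on both arrays, 4 were higher and 1 lower, with a median of 1.16. A further 8 with a probe were not above background on either array, among them Ccl22, a ligand of CCR4, and Ccl20, the ligand of CCR6.

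**Figure D2:**
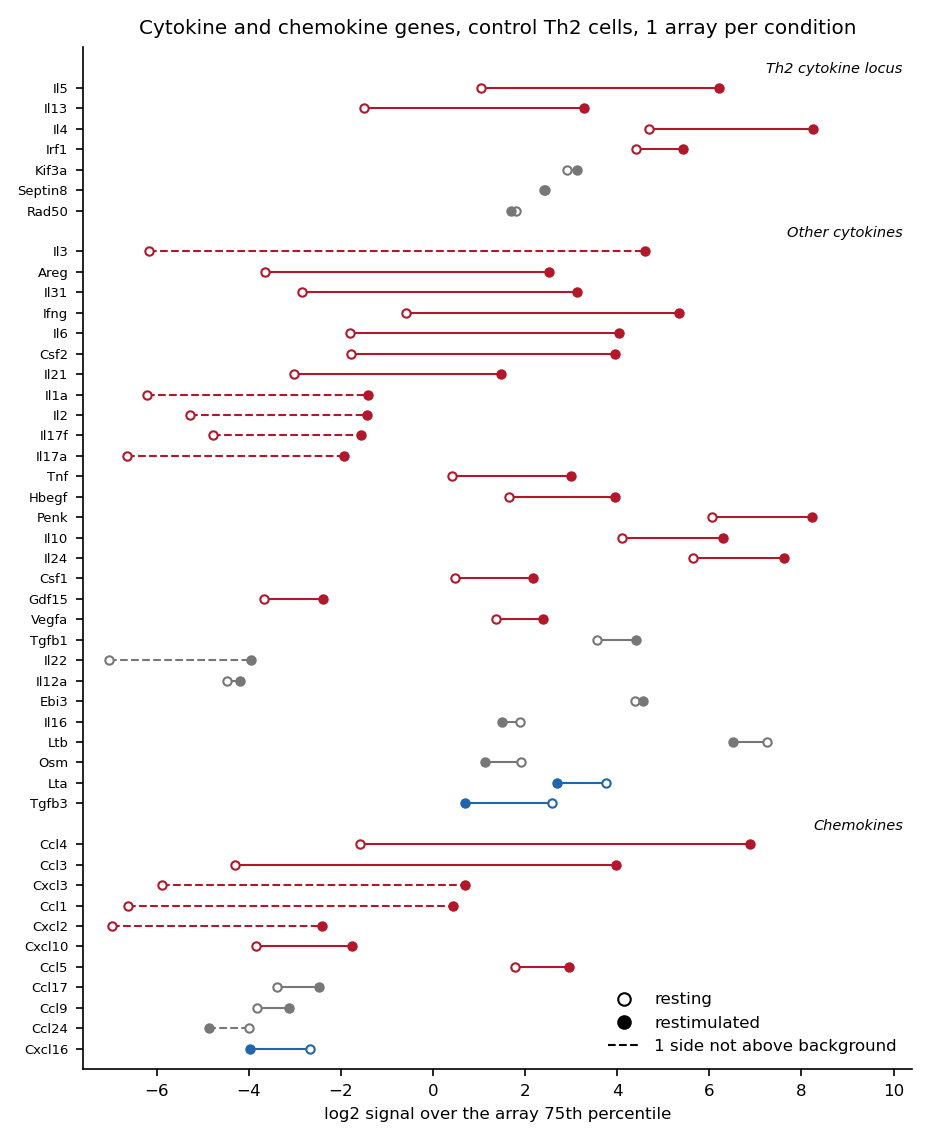
Levels of the genes of the Th2 cytokine locus, other cytokines and chemokines in resting (open circles) and restimulated (filled circles) control Th2 cells, as log2 signal over the array's 75th percentile, 1 array per condition. Red marks genes at least 2-fold higher, blue at least 2-fold lower, grey the rest. Dashed lines mark genes not above background on 1 array, plotted at their measured signal. Il3, Ccl4 and Ccl3 have the longest red lines, and Tgfb3, Lta and Cxcl16 are blue.

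Chemokine receptor genes moved in both directions. Of 15 compared, 5 were at least 2-fold higher and 3 lower, with a median of 0.03. Higher genes included Ccr3, the eotaxin receptor (6.58-fold, technical SD 0.255), Ccr8 (3.81-fold), the inflammatory receptor Ccr2 (2.02-fold), and Cxcr6 (2.02-fold). Lower were Cxcr4, a homing receptor for bone marrow and lymphoid tissue (0.56 to -0.90, 2.74-fold), Cxcr2 (2.64-fold) and Ccr7, which guides T cells into lymph nodes (4.25 to 2.92, 2.51-fold). Ccr4, a receptor typical of Th2 cells, differed by -0.38. Ccr2 and Cxcr6 were so close to 2-fold that median centring or spike-in centring left 3 higher genes.

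The genes of transcription factors that respond within minutes to hours of TCR signalling were broadly higher. Of 26 immediate-early genes compared in the EGR and AP-1 list, 15 were at least 2-fold higher, none was at least 2-fold lower and the median was 1.49. The zinc finger genes Egr2 and Egr1 had levels of 0.61 and 0.28 at rest, and they reached 4.83 (18.6-fold) and 4.27 (15.9-fold). Egr4 was at least 13.2-fold higher, and their co-repressor gene Nab2 was 5.62-fold higher. Among AP-1 genes, Fosl1 was 8.29-fold, Atf3 7.44-fold, Maff 6.34-fold, Fosb 4.31-fold (technical SD 0.317), Jun 3.67-fold and Junb 2.15-fold higher. Fos differed by only 0.12, with levels of -0.08 and 0.03, and Batf, an AP-1 partner in T helper differentiation, by 0.11. The stress response genes Gadd45b and Plk3 were 7.11-fold and 4.70-fold higher.

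The NR4A genes encode orphan nuclear receptors that report TCR signal strength. All 3 were higher, with Nr4a1 going from 0.67 to 6.80 (70.2-fold), Nr4a2 from -2.83 to 0.51 (10.1-fold), and Nr4a3 from below background to -2.05 (at least 6.40-fold). The NFAT and calcineurin genes upstream differed little, and Nfatc2 differed by 0.03. Nfatc1 was 2.28-fold lower on the probe used, which matches accession NM_198429, but it was 1.51 higher on a dimmer probe that matches NM_016791. Its direction therefore depended on the probe. The calcium channel gene Orai1 was 2.48-fold and the transcription factor gene Irf8 2.52-fold higher. Over the 14 NR4A and NFAT pathway genes compared, 5 were higher, 1 was lower and the median was 0.02.

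NF-κB genes were higher among both the subunits and the inhibitors. Of 20 genes compared, 15 were at least 2-fold higher and 1 lower, with a median of 1.38. The subunit genes Nfkb2, Relb and Rela were 5.75-fold, 4.90-fold and 2.41-fold higher. Of the other subunit genes, Rel was not above background on either array and Nfkb1 had no named probe. Among the inhibitors, Tnfaip3, which encodes the deubiquitinase A20, went from 0.84 to 3.96 (8.64-fold), Nfkbid from -1.13 to 1.90 (8.16-fold) and Nfkbia from 4.60 to 7.06 (5.48-fold). The survival genes Traf1, Cflar and Birc3 were 5.42-fold, 2.60-fold and 2.36-fold higher. The lower gene was Ccr7, described above.

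**Figure D3:**
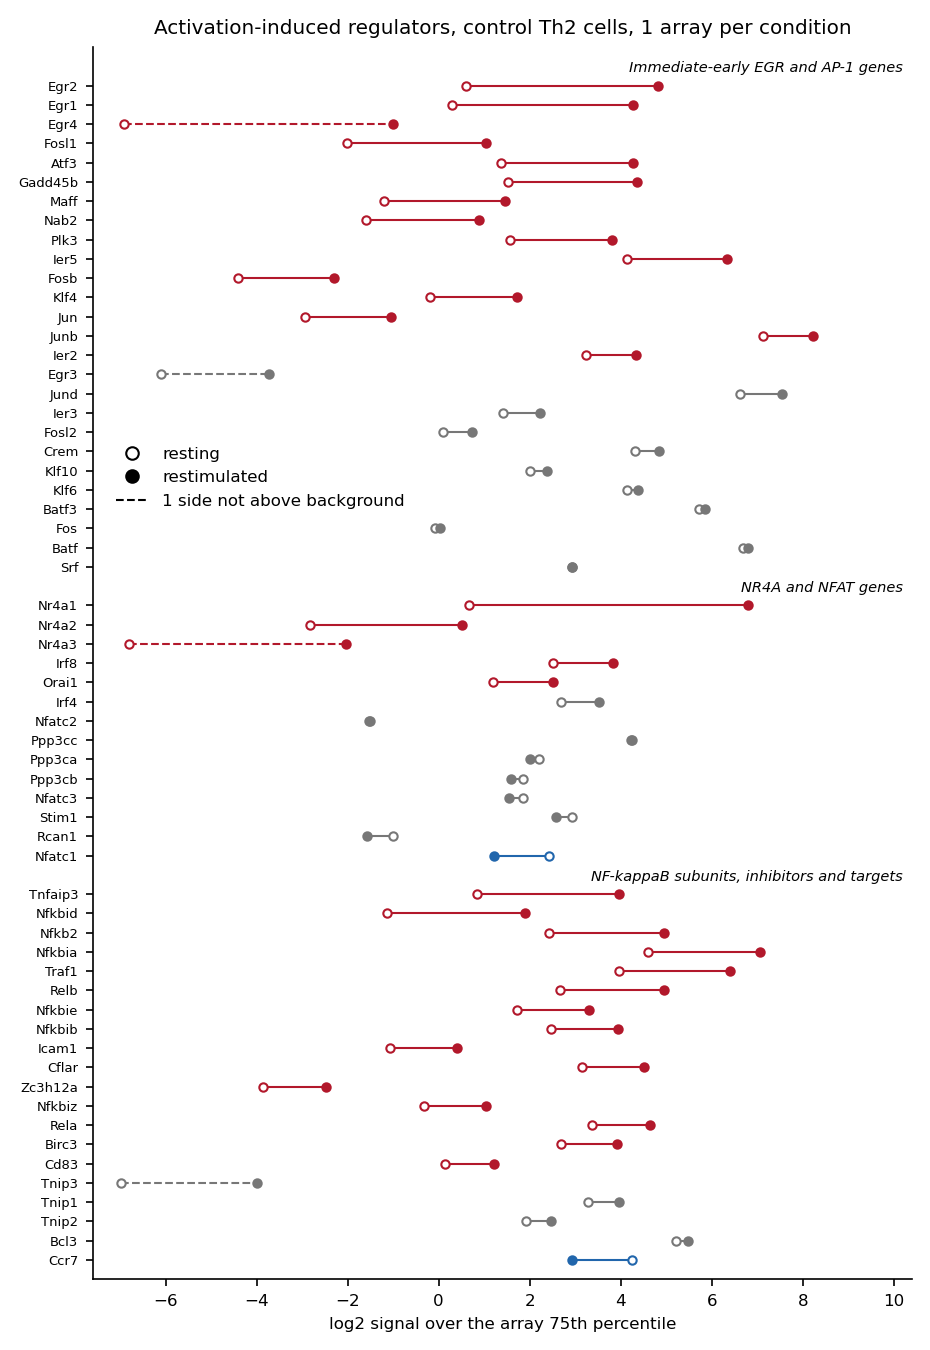
Levels of immediate-early, NR4A and NFAT, and NF-κB genes in resting (open circles) and restimulated (filled circles) control Th2 cells, as log2 signal over the array's 75th percentile, 1 array per condition. Red marks genes at least 2-fold higher, blue at least 2-fold lower, grey the rest, and dashed lines genes not above background on 1 array. Nr4a1 has the longest red line, and Nfatc1 and Ccr7 are blue.

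Feedback regulators of signalling included some of the larger increases. Of 14 inhibitors of MAP kinase signalling, 4 were higher and 1 lower, with a median of 0.38. The lower one, Spry4, was not above background after restimulation (at least 2.51-fold lower). No gene of this list was lower under normexp background correction, with both arrays above background or with the mean of all probes. The phosphatase genes Dusp4 and Dusp2 were 6.78-fold and 5.93-fold higher, and Spry1, an inhibitor of receptor signalling to Ras, was 5.74-fold higher. Dusp1 and Dusp6 differed by 0.22 and 0.56. Rgs16, a regulator that shortens signalling by chemokine receptors, had the third largest increase measured on both arrays (-3.62 to 4.48, 275-fold), and Rgs2 was 8.97-fold higher. In the list of RGS and lipid mediator genes, 5 of 20 were higher and 1 lower (median 0.23). The higher ones also held the prostaglandin synthase gene Ptgs2 (at least 8.58-fold), the acid-sensing receptor gene Gpr65 (4.53-fold) and the prostaglandin receptor gene Ptger2 (2.77-fold). The leukotriene receptor gene Ltb4r1 was 2.07-fold lower.

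Genes of surface receptors that restrain or assist T cells were mostly higher. Of 18 genes of the CD28 family and inhibitory receptors, 13 were higher, none was lower and the median was 1.62. Havcr2, which encodes the inhibitory receptor TIM-3, went from -2.95 to 2.05 (31.9-fold), and Cd200 from -1.54 to 2.09 (12.4-fold). Cd274 and Pdcd1lg2, the ligands of PD-1, were 7.65-fold and 5.72-fold higher, and Pdcd1, PD-1 itself, was 3.60-fold higher. Ctla4 was 3.62-fold, Btla 3.11-fold and Lag3 2.54-fold higher, as was the early activation marker Cd69 (4.68-fold). The costimulatory receptor genes Cd28 and Icos differed by 0.40 and -0.46.

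Among 20 TNF superfamily genes, 8 were higher and 1 was lower (median 0.84). Those with the largest differences were ligands: Tnfsf11 (RANKL) was 12.1-fold, Tnfsf14 5.65-fold, Tnfsf9 4.27-fold, Cd40lg, the B cell helper ligand, 3.76-fold, Fasl 3.67-fold and Tnfsf8 3.40-fold higher. Of the receptors, Tnfrsf4 (OX40) was 2.02-fold higher and Tnfrsf26 2.63-fold lower. Cytotoxic granule genes contributed 3 higher genes of 10 (median 0.48), namely the granzyme inhibitor gene Serpinb9 (4.69-fold), Nkg7 (2.56-fold) and Gzmb (2.26-fold).

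In the list of the TCR complex and its proximal signalling, 21 of 27 genes were within 2-fold, beside 10903 of all 12767 genes. Of 27 compared, 4 were higher and 2 lower, with a median of -0.14. Higher genes included the adaptor gene Lcp2 (3.14 to 4.77, 3.09-fold), and Malt1 and Bcl10 (2.24-fold and 2.22-fold), which encode partners in the path to NF-κB. The adaptor gene Sla2 went from 0.95 to -0.23 and was 2.27-fold lower.

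Among cytokine receptor genes 17 of 22 were within 2-fold, and among STAT pathway genes 13 of 17. Over all genes this held for 10903 of 12767. Of 22 receptor genes 3 were higher and 2 lower (median 0.28), and under quantile normalization or spike-in centring none of the receptor genes was at least 2-fold higher. Il1r2, a decoy receptor for IL-1, was 2.12-fold higher, Il12rb1 2.02-fold higher, and Il2ra 2.08-fold higher on the probe used and -0.21 on its other probe. Il4ra was 2.03-fold and Ifngr1 2.35-fold lower. Il1rl1, the IL-33 receptor gene, differed by 0.71 on the probe used (NM_001025602) and by 3.47 on a dimmer probe that matches NM_010743. Of 17 STAT pathway genes 3 were higher and 1 lower (median -0.04). Stat5a went from 2.55 to 5.02 (5.56-fold) and Jak2 from 3.16 to 5.13 (3.92-fold), whereas Stat6, which transmits the IL-4 signal, differed by 0.22 and Stat4 was 2.25-fold lower.

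Among transcription factors of the Th2 lineage, Gata3, the master regulator, had levels of 5.39 and 5.87 and was 1.39-fold higher. Of the 12 genes compared 5 were at least 2-fold higher and none was lower (median 0.90). The largest measured differences were those of Zbtb32, a repressor induced in activated lymphocytes (1.28 to 4.47, 9.12-fold), and Bhlhe40 (3.81-fold). Pparg was 2.06-fold, Notch1 2.05-fold and Bhlhe41 at least 2.37-fold higher, and Maf, an activator of Il4, differed by 0.95. Under normexp background correction, or with spike-in centring, 3 of the 12 were higher. Transcription factors of other lineages showed 5 higher genes and 1 lower gene of 19 (median 0.13). Zeb2, Bcl6, the follicular helper factor, and Tbx21, which encodes the Th1 factor T-bet, were 10.6-fold, 6.96-fold and 6.89-fold higher. Id2 was 2.49-fold higher and Rora 2.43-fold lower. Foxp3 was above background only at rest (at least 1.63-fold lower).

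Genes of ribosome production were higher as a group. Of 36 genes in the Myc and ribosome biogenesis list, 22 were at least 2-fold higher, none was lower and the median was 1.18, against -0.06 over all genes. Odc1 and Srm, enzymes of polyamine synthesis, were 3.47-fold and 3.25-fold higher, the helicase gene Ddx21 3.44-fold and Polr1b, a subunit of RNA polymerase I, 3.41-fold. Myc itself differed by 0.05, with levels of 3.52 and 3.57, whereas its relative Mycn went from -3.32 to -0.81 (5.71-fold higher).

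Amino acid transporters and the enzymes and stress genes controlled by ATF4 were also higher. Of 15 transporter genes, 10 were higher, none was lower and the median was 1.40. Slc1a4 went from -1.66 to 1.15 (7.01-fold), the glycine transporter gene Slc6a9 from 1.29 to 4.07 (6.85-fold), and Slc7a5, the large neutral amino acid transporter gene, from 1.65 to 3.96 (4.94-fold). The cystine transporter gene Slc7a11 was at least 5.0-fold higher, and Slc38a1 was 2.64-fold higher on the probe used but below 1.5-fold on 2 of its 4 other probes. Of 22 ATF4 and endoplasmic reticulum stress genes, 15 were higher, none was lower and the median was 1.29. Chac1, a glutathione-degrading enzyme gene, went from 1.82 to 4.49 (6.34-fold), the asparagine synthetase gene Asns from 5.18 to 7.17 (3.97-fold) and Trib3 from 3.51 to 5.27 (3.39-fold). Atf4 itself was 2.46-fold higher, the serine synthesis genes Psat1, Psph and Phgdh were 2.56-fold, 2.42-fold and 2.30-fold higher, and Xbp1 differed by 0.04.

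Glycolysis genes past 2-fold were mostly lower. Of 25 compared, 6 were lower, 1 was higher and the median was -0.26. Pfkm, a subunit of phosphofructokinase, went from 3.08 to 1.03 (4.13-fold lower). Lower as well were Bnip3 (2.93-fold) and Pdk1 (2.85-fold), both known targets of hypoxia-inducible factor, the lactate exporter gene Slc16a3 (2.16-fold) and the glucose transporter gene Slc2a3 (2.02-fold). Slc16a1, another lactate transporter gene, was 2.25-fold higher, and Aldoa, Pgk1 and Ldha differed by -0.03, 0.01 and 0.07.

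Cholesterol and fatty acid synthesis genes were near 0, with a median of -0.02 over 32 genes. Only Cyp51 was at least 2-fold higher (2.18-fold). The 3 lower genes, Mylip (2.49-fold), Abcg1 (2.36-fold) and Nr1h3 (2.09-fold, technical SD 0.363), encode a ligase that degrades the LDL receptor, a sterol exporter and the receptor LXRα, which controls both, and none of them is a synthesis enzyme.

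Cell cycle genes were lower as a group, though mostly by less than 2-fold. Of 36 compared, 31 were below 0, 6 were at least 2-fold lower, 2 were higher and the median was -0.58, while 6994 of all 12767 genes were below 0. Cdkn2c, an inhibitor of cyclin-dependent kinases, was 3.23-fold lower, Ccnd3 went from 5.27 to 3.63 (3.12-fold lower), and the mitotic genes Cenpf and Kif20a were 2.47-fold and 2.12-fold lower. Ccnd2, another D-type cyclin gene, went from 6.03 to 7.45 and was 2.68-fold higher. Mki67, the proliferation marker, differed by -0.58. Cdk6 was 2.24-fold higher on the probe used and differed by -0.26 on another.

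Genes of quiescence and lymph node egress held 6 lower and 2 higher genes of 22 (median -0.37). Pik3ip1, an inhibitor of PI3 kinase, went from 2.18 to -0.03 (4.62-fold lower), and Txnip, which limits glucose uptake, from 3.01 to 1.19 (3.53-fold lower). The egress receptor gene S1pr1 was 2.15-fold lower, and S1pr4, a gene of the same receptor family, was 2.16-fold lower. Btg1, an antiproliferative gene, was 4.17-fold higher. Klf2, a quiescence factor that maintains S1pr1, differed by 0.26 on its brighter probe and by -2.31 on the other, and both probes match NM_008452.

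The remaining lists were the Bcl2 family, interferon-stimulated genes and mRNA decay factors. Over all genes, 7.24% were at least 2-fold higher and 7.36% at least 2-fold lower. In the Bcl2 family, Bcl2l1, the gene of the survival factor BCL-XL, went from 0.12 to 2.29 (4.50-fold higher), while the proapoptotic gene Bmf was 2.65-fold lower on the probe used and differed by 0.16 on another. No other of the 13 genes compared passed 2-fold (median -0.23), and Bcl2 differed by 0.00 on the probe used and by -1.08 on another. Of 20 interferon-stimulated genes 3 were higher and 1 was lower (median 0.06), and Isg15 had the largest difference at 3.12-fold. Under normexp background correction, or with spike-in centring, 1 was higher. Of 9 genes of mRNA decay factors, which shorten the life of cytokine mRNA, 4 were higher and none was lower (median 0.79). They were Zfp36l1 (5.87-fold), Zc3h12c (4.22-fold), Zfp36 (2.33-fold) and Rc3h1 (2.20-fold).

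**Figure D4:**
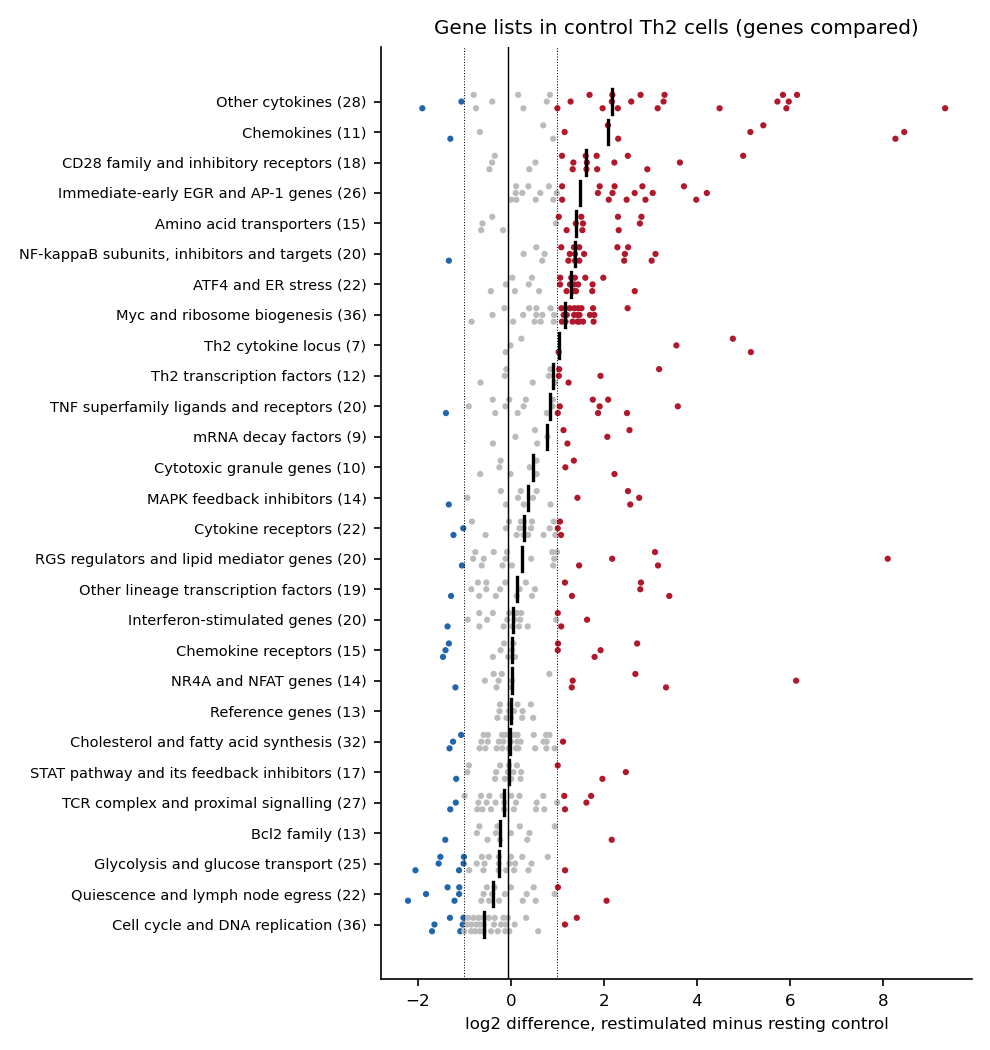
Difference of each gene in the 28 function lists, restimulated minus resting control cells, in log2 units (x axis), with the lists ordered by their median (black bars) and the number of genes compared in brackets. Each point is a gene, red at least 2-fold higher, blue at least 2-fold lower. The solid vertical line marks the median of all genes, -0.06, and the dotted lines 2-fold. The lists of other cytokines and of chemokines lie farthest right with medians of 2.18 and 2.09, and the cell cycle list farthest left at -0.58. A gene above background only after restimulation could not count as lower. With both arrays above background the cytokine and chemokine medians were 1.83 and 1.16.

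The largest increases outside the lists included secreted factors and proteases. Mmp10, a matrix metalloproteinase gene, went from -3.52 to 4.04 (188-fold, technical SD 0.254), and Mmp13, another protease gene of this family, was at least 12.9-fold higher. Inhba, the activin A subunit gene, went from 0.57 to 7.04 (88.4-fold). Plek, which encodes a substrate of protein kinase C, was 23.2-fold higher. Among genes not above background at rest, Tpbg was at least 46.0-fold, the oxidized LDL receptor gene Olr1 at least 27.4-fold and the heparan sulfotransferase gene Hs3st1 at least 13.1-fold higher.

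The largest decreases were smaller, and none of the 9 measured ones named here is in a list. Smtnl2 went from 1.00 to -2.65 and was 12.5-fold lower. Dapk2, a death-associated kinase gene, went from -0.07 to -2.99 (7.55-fold), and Cyp2s1, a cytochrome P450 gene, from 3.79 to 1.10 (6.46-fold). Zfp395 was 6.67-fold (technical SD 0.257), Patl2 6.55-fold, Mboat2, a lysophospholipid acyltransferase gene, 6.53-fold, and the endosomal adaptor gene Appl2 6.46-fold lower. Itga7, an integrin chain that binds laminin, was 5.94-fold and the thromboxane receptor gene Tbxa2r 5.90-fold lower. Of the genes not above background after restimulation, Grik2 was at least 8.42-fold, Pitx1 at least 6.63-fold and Map3k9 at least 6.2-fold lower.

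The same contrast in cells cultured with SH-2251 came from 2 other arrays and is no replicate, because the compound was present in the culture. Among the 12577 genes compared in that pair, 892 (7.09%) were at least 2-fold higher and 875 (6.96%) at least 2-fold lower. Of the genes compared in both pairs, 649 were higher in both, which is 76.4% of the 850 in the control pair and 75.4% of the 861 in the SH-2251 pair. Both pairs shared 595 lower genes, 67.5% of 881 and 70.5% of 844. Over 11510 genes measured on all 4 arrays Pearson's r between the differences was 0.919 and Spearman's rho 0.897, a description of arrays that share a slide and probes, across genes that are not independent.

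The ATF4 and endoplasmic reticulum stress list had fewer genes past 2-fold with SH-2251, with 3 of 22 higher in place of 15 and a median of 0.61 in place of 1.29. Trib3 had levels of 3.51 and 5.27 in resting and restimulated control cells, and 5.26 and 5.29 with SH-2251. Ddit3, the gene of the stress factor CHOP, had levels of 2.48 and 3.86 in control cells and 3.78 and 3.70 with SH-2251. Asns went from 5.18 to 7.17 in control cells and from 6.02 to 6.94 with SH-2251. For each of these genes the resting level was higher with SH-2251, and the restimulated levels lay closer together than the resting ones.

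Other genes differed more with SH-2251 than in the control pair. Gfi1, a repressor that supports IL-5 production by Th2 cells, differed by 0.86 in control cells and by 3.75 with SH-2251, where its resting level was -2.01 in place of 3.38. Cxcr6 differed by 1.02 and 3.25, and Isg15 by 1.64 and 3.71. Of the cell cycle genes, 12 of 36 were at least 2-fold lower with SH-2251 in place of 6. Among the Th2 cytokine genes, Il5 had levels of -2.82 at rest and 3.19 after restimulation with SH-2251, both lower than the 1.04 and 6.2 of control cells, and its difference was 6.01 beside 5.16. Il13 differed by 5.53 with SH-2251 beside 4.77, and Il4 by 3.43 beside 3.56. None of these differences between the pairs was tested, since each condition has 1 array.

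**Figure D5:**
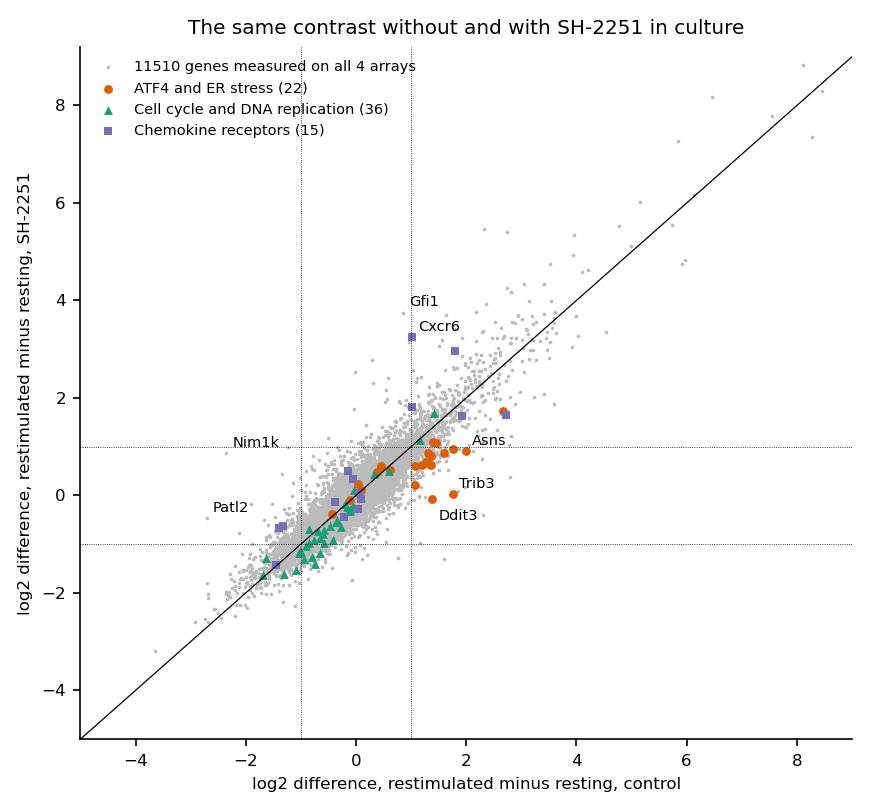
Difference between restimulated and resting cells in the control pair (x axis) and the SH-2251 pair (y axis), in log2 units, for 11510 genes measured on all 4 arrays (grey), with 3 lists in colour. The line marks equal differences and the dotted lines 2-fold. Of the 22 ATF4 and endoplasmic reticulum stress genes 16 lie below the line, with Trib3 at 1.76 and 0.03, while Cxcr6 lies above it.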

How the data were processed

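Single-dye (Cy3) Agilent whole mouse genome arrays measured RNA in 4 samples, of which the 2 control samples were compared. For each array the authors deposited the output of Agilent Feature Extraction (10.7 per the labels, 10.7.3.1 per the file header), whose processed intensity values that software had corrected for background. A further deposited table holds log2 values that the authors normalized with the Subio Platform, and it served as an alternative. The members, gene lists and rules used here were chosen with earlier results of these data known.

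Here, control and outlier spots were left out, spots of a probe were averaged, and log2 intensity minus each array's 75th percentile was computed for 41173 probes. RefSeq accessions matched 27190 of them (66.0%) to 18535 genes through a RefSeq table of GRCm38.p6. Of several probes of a gene, the brightest on average over both control arrays was used. Among 185 named genes with another probe measured on both arrays, 12 had one that differed by over 1. Bounds below 0 for an increase, or above 0 for a decrease, were set to 0.

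The 28 function lists held 584 genes, of which 542 were compared, 26 were not above background and 16 had no named probe. Of the 542, 184 were at least 2-fold higher and 39 lower. Named genes are list members, the 15 largest increases and 15 largest decreases measured on both arrays, and the 10 largest bounds each way, and not all of them are printed. Some members that the counts include are not reported here by name. Precision is limited by the number of arrays. The technical SD covers error within the arrays only, and for 245 probes with 10 spots each the SD between spots had medians of 0.0558 and 0.0562 on the resting and restimulated array. No test was made. The procedure was tested on simulated data.

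Alternatives were median centring, quantile normalization, the deposited log2 values, normexp, filters, the mean of all probes, outlier spots kept, other fold thresholds and spike-in centring, the last chosen after seeing the data. The normexp correction (limma 3.58.1, R 4.3.3, offset 50) was made on median spot signals because the deposited files hold no mean signal in the columns used. Other steps used pandas 2.3.3, numpy 2.4.6, scipy 1.17.1 and matplotlib 3.10.9 under Python 3.11.15.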

Additional observations from a re-analysis of the deposited data

Results flagged for a closer look

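Cxcl16, which encodes the ligand of CXCR6, was at least 2-fold lower after restimulation in the control pair and at least 2-fold higher in the SH-2251 pair. It differed by -1.30 in control cells (technical SD 0.283), with levels of -2.67 at rest and -3.97 after restimulation. With SH-2251 it was not above background at rest and reached -3.0, a difference of at least 1.65. The difference between the pairs was not tested, and on the other probe of Cxcl16 the control difference was -0.15.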

How the results depend on the processing

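No paired analysis was possible because each condition has 1 array. Over the alternatives at the 2-fold threshold, the number of higher genes ranged from 630 (normexp) to 1364 (no filter and no bound) around 924, and the number of lower genes from 444 (normexp) to 1406 (no filter and no bound) around 940. Thresholds of 1.5-fold and 3-fold gave 1920 and 382 higher and 2370 and 195 lower genes. Spike-in centring moved the median of all genes from -0.06 to -0.19 and gave 750 higher and 1237 lower genes.

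The median of the other cytokines was 1.59 under normexp and 1.83 with both arrays above background, beside 2.18. That of the chemokines was 1.17 under normexp, 1.16 with both arrays above background and 0.77 with no filter and no bound, beside 2.09. The EGR and AP-1 list gave 1.10 under normexp and 1.89 with no filter and no bound, the TNF superfamily 0.58 under normexp, and the CD28 family 1.28 under normexp and 1.41 with the mean of all probes. With the mean of all probes the medians of glycolysis and Th2 markers were -0.47 and 1.91. The NK and CD8 T cell markers had a median of 0.22 with both arrays above background, and the red cell markers -0.56 with no filter and no bound. The direction of Nfatc1 turned to 0.16 with the mean of all probes.

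The 5 higher Th2 transcription factor genes became 3 under normexp and under spike-in centring, and the 3 higher cytokine receptor genes became 0 under quantile normalization and under spike-in centring. The 6 lower cell cycle genes became 9 under spike-in centring. Of 597 named genes, normexp moved 111 by more than their technical SD and reversed none, and the deposited log2 values moved none. The precision of dim genes is limited by their signal over background.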
